A study of Mus musculus with 8 samples.

Results

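Interferons are secreted proteins that warn neighbouring cells of infection, and the genes described here receive that signal, sense foreign RNA, carry out the antiviral response or display peptides to T cells. They are 42 mouse genes fixed by name. Each was read by every probe set of an Affymetrix mouse expression array whose only annotated symbol was that gene, with no filter on low values. Of the 42 genes, 40 had such a probe set, and together they had 80 of the 34945 probe sets with a single symbol, which cover 18193 genes. Isg15 was read only together with a second symbol and Ifi44 had no probe set of this kind, so neither was analysed here.

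Type I interferons bind a receptor built of Ifnar1 and Ifnar2, and interferon gamma binds one built of Ifngr1 and Ifngr2. Janus kinases on these receptors phosphorylate STAT proteins. A complex that holds Stat2 and Irf9 then binds the interferon-stimulated response element (ISRE), and the gamma-activated site (GAS) is the element through which interferon gamma acts. Presentation on MHC class I, the complex that displays peptides to T cells, uses the peptide transporter made of Tap1 and Tap2, the loading factor tapasin (Tapbp), a heavy chain such as H2-K1 or H2-D1, and its light chain beta-2 microglobulin (B2m). The immunoproteasome, with its subunits Psmb8, Psmb9 and Psmb10, can supply the peptides but is not the only source of them. Mouse embryonic stem cells (ESCs) are known for a weak interferon response and for little class I on their surface.

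The 8 arrays were of V6.5 mouse ESCs infected with a lentivirus that carried 2 cassettes, 1 for a constitutive shRNA against the endogenous mouse Wdr5 mRNA and 1 for a human WDR5 transgene under a doxycycline-inducible promoter. WDR5 is a scaffold of histone H3 lysine 4 methyltransferases of the MLL family, and F266A is a substitution in the cleft through which it binds RNA. The 4 groups, with 2 arrays each described as biological duplicates, were F266A -dox, F266A +dox, WT -dox and WT +dox, where +dox is 2 µg/mL doxycycline and -dox is growth without it. All 4 carried the shRNA and were sorted for the GFP that is expressed with the transgene before plating, so no group shows cells with their own Wdr5 untouched. The sources describe 1 line of each transgene, so the mutation and other differences between the lines cannot be told apart, and the p-values measure the spread between duplicates. The -dox and +dox groups differ in doxycycline itself as well as in the transgene, and the effects of the 2 cannot be told apart.

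The promoters of these genes are shown first, since the list was named for a shared response. RefSeq windows from 250 bases before to 50 bases after the start of transcription (build GRCm38.p6) matched 37 of the 42 genes. The core of the ISRE, GAAANNGAAA on either strand, was found in 13 of the 37 (35.1%), against 3.99% of all 27025 genes with a window. The GAS element TTCNNNGAA was found in 12 of the 37 (32.4%), against 9.55% of all genes. In Bst2 and Ifitm3 the 2 motifs overlap. Of the 12 measured genes with an ISRE core, 7 exceeded an expression value of 50 (linear scale) in some array and 5 did not. Of the 12 measured genes with a GAS element, 10 did and 2 did not, and of all 40 measured members 28 did. Stretches of 5 promoters are printed 5′ to 3′ on the coding strand with the motif in capitals (the ISRE core in B2m and, read on the other strand, in Ifit1 and Ifit3, and the GAS element in Irf1 and Psmb8), 3 of genes above 50 whose level differed between groups (B2m, Irf1 and Psmb8) and 2 of genes under 50 in every array (Ifit1 and Ifit3).
B2m: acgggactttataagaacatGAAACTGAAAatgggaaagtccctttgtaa
Irf1: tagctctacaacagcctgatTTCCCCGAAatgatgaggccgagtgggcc
Psmb8: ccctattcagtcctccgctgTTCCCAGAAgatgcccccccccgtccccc
Ifit1: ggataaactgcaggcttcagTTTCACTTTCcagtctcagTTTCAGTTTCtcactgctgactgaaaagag
Ifit3: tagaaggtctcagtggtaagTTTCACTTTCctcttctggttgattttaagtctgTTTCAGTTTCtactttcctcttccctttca
They lie at chr2:122147528-122147577 (B2m), chr11:53769904-53769952 (Irf1), chr17:34198078-34198126 (Psmb8), chr19:34640765-34640833 (Ifit1) and chr19:34583353-34583436 (Ifit3), each on the forward strand and upstream of the start. B2m has 1 ISRE core at -139 to -130 from its start, and Ifit1 and Ifit3 have 2 each. Bst2 and Ifitm3, which exceeded 50 in every array, also have 2 each, so the number of cores did not separate genes above 50 from genes under it. Irf1 and Psmb8 have no ISRE core in this window and 1 GAS element each, at -90 to -82 in Irf1 and at -97 to -89 in Psmb8.

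Tap1 and Psmb9 face away from each other on chromosome 17, with 225 bases between their start sites. This stretch is shown because Tap1 differed between the lines and Psmb9 was called in no comparison. It lies at chr17:34187331-34187555, and its single GC box (GGGCGG, here on the other strand) is in capitals. A GC box is in 35.7% of all windows.
Tap1-Psmb9: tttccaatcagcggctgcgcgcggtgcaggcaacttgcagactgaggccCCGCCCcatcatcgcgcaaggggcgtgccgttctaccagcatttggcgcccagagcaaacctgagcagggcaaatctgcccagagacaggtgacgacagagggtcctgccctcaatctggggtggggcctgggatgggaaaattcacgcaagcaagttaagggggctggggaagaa

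Values are log2 expression as deposited, where 1 unit is a doubling and 50 on the linear scale is 5.64. A difference is called where its limma p, adjusted over all 34945 probe sets, is under 0.05. Duplicate arrays correlated at 0.9969 to 0.9977 over all probe sets and arrays of different groups at 0.9853 to 0.9958. The 2 mouse Wdr5 probe sets read higher without doxycycline in both lines. One (1448389_at) gave 8.32 and 8.15 in F266A -dox, 7.34 and 7.36 in F266A +dox, 8.28 and 8.13 in WT -dox and 7.02 and 6.94 in WT +dox. The other (1416581_at) gave 10.30 and 10.39 in F266A -dox, 9.83 and 9.77 in F266A +dox, 10.62 and 10.57 in WT -dox and 9.68 and 9.70 in WT +dox. With the shRNA in every group and a human transgene, these values do not check the labels. All 8 ESC markers examined (Pou5f1, Sox2, Nanog, Zfp42, Esrrb, Tdgf1, Dppa5a and Utf1) exceeded 50, and their summed linear level was 45866 to 48232 in F266A -dox, 54717 to 54926 in F266A +dox, 56744 to 57801 in WT -dox and 60748 to 60882 in WT +dox. Of 7 measured leukocyte markers, Ptprc, Lyz2, Adgre1 and Itgam stayed under 50 and Cd68, Csf1r and Cd3e did not, and their sum was 342 to 381 in F266A -dox, 387 to 402 in F266A +dox, 413 to 437 in WT -dox and 609 to 636 in WT +dox. Of 8 fibroblast markers only Col1a2 exceeded 50, and the sum was 262 to 307 in F266A -dox, 239 to 255 in F266A +dox, 232 to 234 in WT -dox and 235 to 242 in WT +dox. The sum over 4 trophoblast markers (Elf5 under 50) was 793 to 908 in F266A -dox, 884 to 1014 in F266A +dox, 1067 to 1128 in WT -dox and 1350 to 1493 in WT +dox. The sum over 4 visceral endoderm markers (Afp under 50) was 236 to 255 in F266A -dox, 216 to 226 in F266A +dox, 227 to 245 in WT -dox and 218 to 234 in WT +dox. A 3′ probe set for 18S RNA read 10.12 to 10.91 in the F266A arrays and 10.97 to 11.42 in the WT arrays. The Gapdh 3′ probe set exceeded the 5′ one by 0.141 to 0.165 in the F266A arrays and by 0.101 to 0.134 in the WT arrays. The ESC, leukocyte and trophoblast sums were lowest in F266A -dox and highest in WT +dox, the fibroblast sum was highest in F266A -dox, and the 18S and Gapdh values separated the lines. The part of these differences in the results below was not tested. In whole cultures, fewer cells of a type and less RNA per cell cannot be told apart.

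Of the 40 genes, 28 exceeded 50 in at least 1 array, 26 of them in every array, and 12 stayed under it in all 8. Of the 80 probe sets 47 exceeded it (58.8%), against 57.4% of all probe sets. The 12 genes under 50 were the RNA sensors Ifih1 and Dhx58, the transcription factors Stat2, Irf7 and Irf2, and 7 of the 14 antiviral effectors (Mx1, Mx2, Isg20, Ifit1, Ifit3, Oasl2 and Usp18), with no array above 5.41. All 9 antigen presentation genes, all 3 Ifitm genes and all 4 receptor genes exceeded 50. Signals of different probe sets depend on their probes, so levels are compared only within a probe set.

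**Figure D1:**
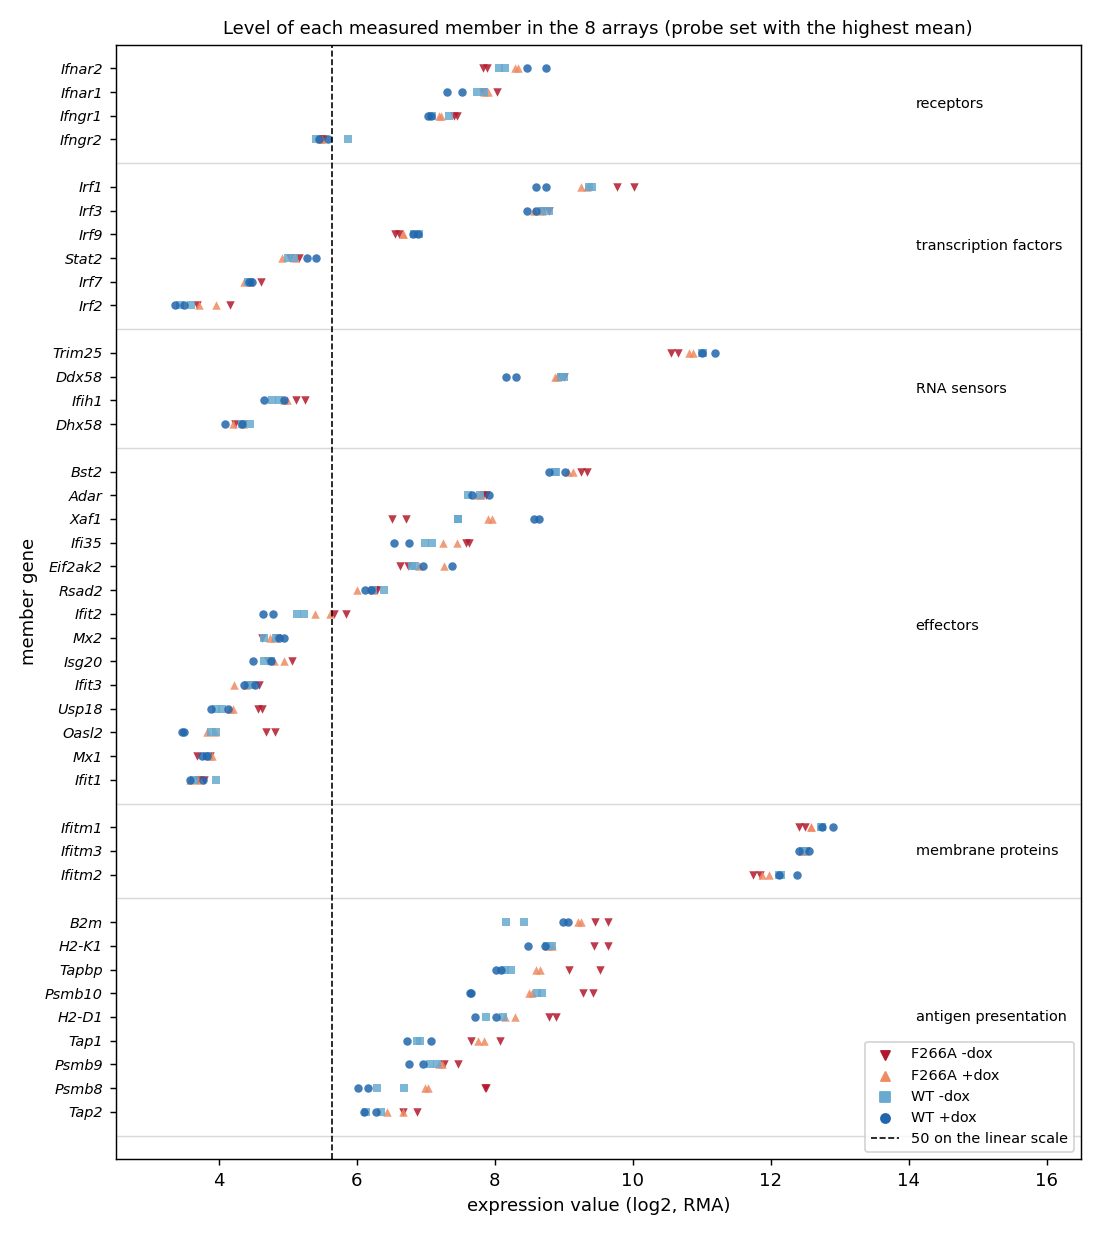
Expression value (log2, x axis) of each measured member (y axis, by role) in the 8 arrays, for the probe set with the highest mean, with markers for the 4 groups and a dashed line at 50 on the linear scale. Of the 40 genes, 12 lie left of the line in every array, and Ifit2 and Ifngr2 cross it.

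Among the receptors, Ifnar1 (1449026_at) read 8.03 and 7.83 in F266A -dox, 7.85 and 7.89 in F266A +dox, 7.74 and 7.84 in WT -dox and 7.30 and 7.52 in WT +dox. Its partner Ifnar2 (1451462_a_at) read 7.88 and 7.83 in F266A -dox, 8.29 and 8.33 in F266A +dox, 8.06 and 8.15 in WT -dox and 8.47 and 8.73 in WT +dox. By these probe sets the 2 chains of the type I receptor stood opposite in WT +dox, which was lowest for Ifnar1 and highest for Ifnar2. Their other probe sets, 1442222_at for Ifnar1 and 1427691_a_at and 1440169_x_at for Ifnar2, were called in no comparison. Both of the latter had their highest mean in WT +dox. For Ifnar1, 1442222_at, under 50 in every array, was lower in F266A +dox than in WT +dox by its means (-0.23), opposite to 1449026_at. Irf1, a transcription factor that activates class I and immunoproteasome genes, read 9.77 and 10.02 in F266A -dox, 9.34 and 9.25 in F266A +dox, 9.41 and 9.36 in WT -dox and 8.74 and 8.60 in WT +dox (1448436_a_at). F266A -dox was highest, WT +dox lowest and the other groups lay between them without reaching either. Irf3, the factor that starts interferon transcription after virus sensing, stayed between 8.46 and 8.78 in all arrays (1426111_x_at).

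Of the RNA sensors, Ddx58 (RIG-I, a detector of viral RNA) read 8.97 and 9.01 in F266A -dox, 8.87 and 8.90 in F266A +dox, 8.96 and 9.01 in WT -dox and 8.17 and 8.30 in WT +dox (1436562_at). By this probe set only WT +dox stood apart. A weaker Ddx58 probe set, 1456890_at, gave 6.02 and 5.49 in F266A -dox, 6.35 and 6.23 in F266A +dox, 6.06 and 6.22 in WT -dox and 5.75 and 5.95 in WT +dox, where F266A -dox and WT +dox overlapped below the rest, and it was called in no comparison. Trim25, the ubiquitin ligase that activates RIG-I, was read by 3 probe sets that did not run together. 1419879_s_at gave 10.55 and 10.66 in F266A -dox, 10.88 and 10.82 in F266A +dox, 11.02 and 11.00 in WT -dox and 11.00 and 11.19 in WT +dox, and 1425974_a_at showed the same order. In contrast, 1426415_a_at gave 7.39 and 7.09 in F266A -dox, 7.36 and 7.34 in F266A +dox, 7.32 and 7.28 in WT -dox and 6.84 and 6.91 in WT +dox, with WT +dox lowest, so no single direction can be given for Trim25.

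Effectors differed from gene to gene. Ifit2, which binds foreign RNA, crossed the minimum only in the F266A line without doxycycline, where it read 5.85 and 5.67, against 5.40 and 5.62 in F266A +dox, 5.14 and 5.23 in WT -dox and 4.78 and 4.63 in WT +dox (1418293_at). Ifi35, an interferon-induced leucine zipper protein, read 7.63 and 7.59 in F266A -dox, 7.45 and 7.25 in F266A +dox, 6.99 and 7.09 in WT -dox and 6.54 and 6.76 in WT +dox (1445897_s_at). By these probe sets both genes had the same order of groups, with no overlap between neighbours. For Ifi35, 1424617_at had this order as well but was called in no comparison, and the WT groups overlapped by 1459151_x_at. Bst2 (tetherin, which holds budding virus on the cell) read 9.24 and 9.34 in F266A -dox, 9.13 and 9.06 in F266A +dox, 8.88 and 8.87 in WT -dox and 9.01 and 8.79 in WT +dox (1424921_at). Adar, an RNA editing enzyme that keeps self RNA from being sensed, read 7.53 and 7.47 in F266A -dox, 7.57 and 7.42 in F266A +dox, 7.64 and 7.64 in WT -dox and 7.87 and 7.86 in WT +dox by 1425405_a_at, whereas 1434268_at ranged from 7.61 to 7.92 with no such order. Xaf1, an antagonist of the apoptosis inhibitor XIAP, ran the other way. It read 6.51 and 6.71 in F266A -dox, 7.96 and 7.90 in F266A +dox, 7.47 and 7.47 in WT -dox and 8.57 and 8.64 in WT +dox (1443621_at), and no 2 groups overlapped. Ifitm1, Ifitm2 and Ifitm3, membrane proteins that block virus entry, ranged from 11.74 to 12.90 and were among the 20 members called in no comparison. Others of these 20 were Ifngr1, which ranged from 7.03 to 7.46, Irf9, the DNA-binding part of the complex on the ISRE, from 6.55 to 6.91, and Eif2ak2 (the kinase PKR, which stops translation on double-stranded RNA), from 6.62 to 7.38 by 1422005_at.

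For antigen presentation, Psmb8 read 7.87 and 7.85 in F266A -dox, 6.99 and 7.03 in F266A +dox, 6.29 and 6.68 in WT -dox and 6.02 and 6.16 in WT +dox (1422962_a_at). Psmb10 read 9.28 and 9.42 in F266A -dox, 8.49 and 8.53 in F266A +dox, 8.61 and 8.68 in WT -dox and 7.63 and 7.66 in WT +dox (1448632_at). Both subunits were highest in F266A -dox and lowest in WT +dox, with no overlap. The third subunit, Psmb9, spanned less and read 7.27 and 7.47 in F266A -dox, 7.19 and 7.23 in F266A +dox, 7.06 and 7.16 in WT -dox and 6.75 and 6.96 in WT +dox (1450696_at). Tap1 separated the lines rather than the doxycycline states, with 7.65 and 8.07 in F266A -dox, 7.85 and 7.76 in F266A +dox, 6.92 and 6.86 in WT -dox and 6.73 and 7.07 in WT +dox (1416016_at). Tap2 read 6.67 and 6.87 in F266A -dox, 6.43 and 6.68 in F266A +dox, 6.13 and 6.35 in WT -dox and 6.10 and 6.28 in WT +dox (1453913_a_at), so that here the states overlapped within each line. Tapbp read 9.08 and 9.53 in F266A -dox, 8.66 and 8.60 in F266A +dox, 8.15 and 8.23 in WT -dox and 8.08 and 8.02 in WT +dox (1421812_at), and the groups did not overlap.

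The class I heavy chains were highest in F266A -dox by their strongest probe sets. H2-K1 read 9.44 and 9.64 in F266A -dox, 8.82 and 8.77 in F266A +dox, 8.75 and 8.82 in WT -dox and 8.73 and 8.48 in WT +dox (1425336_x_at). H2-D1 read 8.79 and 8.88 in F266A -dox, 8.29 and 8.15 in F266A +dox, 7.87 and 8.12 in WT -dox and 8.02 and 7.71 in WT +dox (1425545_x_at). H2-D1 by 1425614_x_at, 1427651_x_at and 1451934_at and H2-K1 by 1450534_x_at were not highest in that group. These genes are near copies of each other and of further class I genes, and all but 2 of their probe sets are of the kind whose probes can bind related transcripts, so the gene behind a class I signal is uncertain. Those 2, 1426324_at and 1451934_at of H2-D1, were under 50 in every array and called in no comparison. Their light chain B2m followed another pattern, with 9.45 and 9.65 in F266A -dox, 9.25 and 9.21 in F266A +dox, 8.16 and 8.42 in WT -dox and 9.06 and 8.99 in WT +dox (1452428_a_at). Here WT -dox was the lowest group, below WT +dox. Of the antigen presentation genes, 7 (Tap1, Tap2, Tapbp, Psmb8, Psmb9, H2-D1 and H2-K1) lie on chromosome 17, where the median difference over the other 933 probe sets above 50 was between -0.03 and 0.00 in each comparison, while Psmb10 is on chromosome 8 and B2m on chromosome 2.

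**Figure D2:**
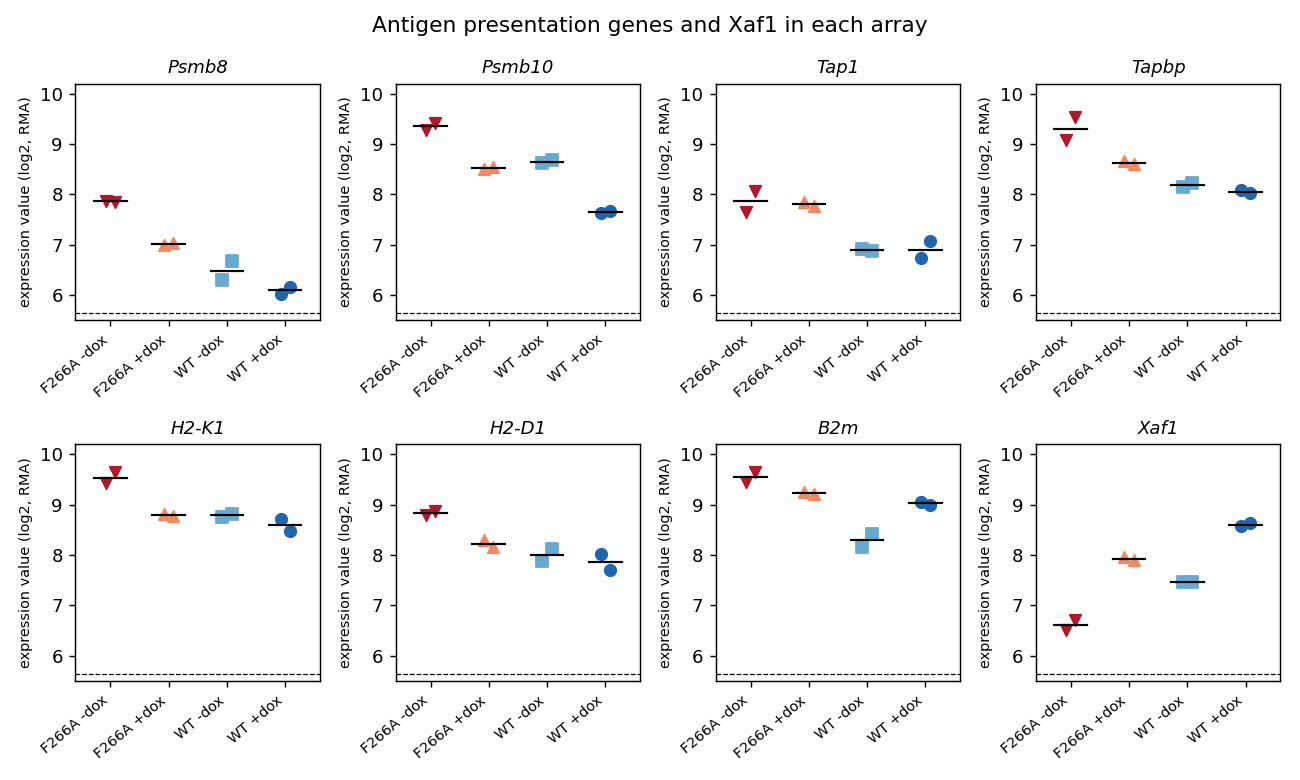
Expression value (log2, y axis) in each array of the 4 groups (x axis) for 7 antigen presentation genes and Xaf1, with a bar at the mean of each pair and a dashed line at 50 on the linear scale. F266A -dox is the highest group for Psmb8, Psmb10, Tapbp, H2-K1, H2-D1 and B2m and the lowest for Xaf1.

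To ask whether cells that express F266A differ from cells that express WT, F266A +dox was set against WT +dox. The immunoproteasome subunits Psmb8 and Psmb10 and the transporter subunit Tap1 were higher in F266A +dox, as were Irf1 and Ddx58, and Xaf1 was lower. Of the 80 probe sets 13 were called higher (16.2%), against 6.39% of all probe sets, and 3 lower (3.75%), against 4.98% of all (limma, adjusted p under 0.05). Their median difference was 0.07, against -0.01 over all probe sets. The 12 genes with a probe set called higher were Ifnar1, Irf1, Ddx58, Trim25, Ifit2, Oasl2, Ifi35, Tap1, Tapbp, Psmb8, Psmb10 and H2-D1, and the 2 with one called lower were Xaf1 and Adar. Trim25 was called by 1426415_a_at alone (0.47 ± 0.11), while 1419879_s_at at -0.25 ± 0.09 and 1425974_a_at at -0.28 ± 0.09 were not called and had the opposite sign. Adar was called by 1425405_a_at (-0.37 ± 0.09), while 1434268_at gave -0.01 ± 0.11, and with genes as means of probe sets above 50 the Adar value was -0.11 and not called (limma adjusted p = 0.538). No difference reached 2-fold. The largest were Psmb8 at 0.92 ± 0.12 (SE, n = 2 arrays each here and below, limma adjusted p = 0.00117), Tap1 at 0.90 ± 0.15 (limma adjusted p = 0.00364) and Psmb10 at 0.87 ± 0.09 (limma adjusted p = 0.000226). In 5 of 9 antigen presentation genes a probe set was called higher and in none lower. Of their 26 probe sets 5 were called higher, against 6.39% of all probe sets. Tap2 at 0.36 ± 0.12 (limma adjusted p = 0.0956), Psmb9 at 0.35 ± 0.10 (limma adjusted p = 0.0583), H2-K1 at 0.19 ± 0.11 (limma adjusted p = 0.322) and B2m at 0.20 ± 0.11 (limma adjusted p = 0.291) were not called.

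In the same comparison, Ifi35 was higher by 0.70 ± 0.11, Ddx58 by 0.65 ± 0.08 and Irf1 by 0.63 ± 0.10. With genes as means of probe sets above 50, Ifi35 was at 0.43 and Tapbp at 0.38, against 0.58 for Tapbp by 1421812_at. Ifit2 was called higher by 0.80 ± 0.11, but all 4 arrays of this comparison were under 50 for it. Xaf1 was lower at -0.68 ± 0.09 by 1443621_at and -0.83 ± 0.14 by 1443698_at. H2-D1 was called by 1451784_x_at, which read 8.09 and 8.17 in F266A +dox and 7.60 and 7.59 in WT +dox (0.54 ± 0.08, limma adjusted p = 0.00263), while 1425545_x_at at 0.36 ± 0.12 was not (limma adjusted p = 0.105). Oasl2, an oligoadenylate synthetase-like protein, was called with 3.82 and 3.94 in the F266A +dox arrays and 3.46 and 3.50 in the WT +dox arrays, all under 50. Of the 16 calls, 10 held with each array left out. Leaving out either array of F266A +dox or of WT +dox ended those of Tapbp (0.55 to 0.61, limma adjusted p 0.0757 to 0.118) and of Trim25 (0.43 to 0.51, 0.0612 to 0.11). Ifnar1 was lost without either F266A +dox array or WT +dox replicate 1 (0.35 to 0.48, 0.0913 to 0.15), Oasl2 and Adar without F266A +dox replicate 2 or either WT +dox array (0.34 to 0.42, 0.0733 to 0.116, and -0.37 to -0.29, 0.0913 to 0.14), and the second Ifi35 probe set, 1459151_x_at, without any array but those of F266A -dox (0.27 to 0.37, 0.0602 to 0.195). Without F266A +dox replicate 2 or WT +dox replicate 1, 8 probe sets were called higher and 2 lower.

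The lines were also compared without doxycycline. In F266A -dox against WT -dox, 8 of the 9 antigen presentation genes, all but Psmb9, had a probe set called higher, and none had one called lower. Of their 26 probe sets 14 were called higher, against 5.71% of all probe sets. Of the 80 probe sets 21 were called higher (26.2%), against 5.71% of all probe sets, and 4 lower (5%), against 4.34% of all, with a median difference of 0.04, against 0.00 over all. The 14 genes with a probe set called higher were Irf1, Ifit2, Oasl2, Ifi35, Bst2, Usp18, B2m, Tap1, Tap2, Tapbp, Psmb8, Psmb10, H2-D1 and H2-K1, and the 2 with one called lower were Trim25 and Xaf1. Psmb8 was 2.6-fold higher (1.38 ± 0.12, limma adjusted p = 0.000151). B2m was 2.39-fold higher by 1452428_a_at (1.26 ± 0.11, limma adjusted p = 0.000133), and its other probe set, 1449289_a_at, gave 1.34 ± 0.12. Tapbp was 2.16-fold higher (1.11 ± 0.13, limma adjusted p = 0.000727), and these 4 probe sets were the ones past 2-fold. Tap1 followed at 0.97 ± 0.15, H2-D1 at 0.84 ± 0.12, H2-K1 at 0.75 ± 0.11, Psmb10 at 0.70 ± 0.09 and Tap2 at 0.53 ± 0.12, while Psmb9 at 0.26 ± 0.10 was not called (limma adjusted p = 0.163). With genes as means of probe sets above 50, H2-D1 was at 0.48.

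Of the other members, Irf1 was higher in F266A -dox by 0.51 ± 0.10, Ifit2 by 0.57 ± 0.11, Ifi35 by 0.57 ± 0.11 and Bst2 by 0.41 ± 0.10. Usp18, a protease that removes Isg15 from proteins, was called higher with 4.57 and 4.63 in the F266A -dox arrays and 4.04 and 3.96 in the WT -dox arrays. Oasl2 was called with 4.68 and 4.82 in the F266A -dox arrays and 3.95 and 3.88 in the WT -dox arrays. Both stayed under 50 in every array. Xaf1 was lower at -0.86 ± 0.09, and Trim25 at -0.41 ± 0.09 by 1419879_s_at and -0.51 ± 0.09 by 1425974_a_at. Ddx58 differed by 0.00 ± 0.08 by 1436562_at (95% interval -0.19 to 0.19) and by -0.38 ± 0.16 by 1456890_at (95% interval -0.74 to -0.03, limma adjusted p = 0.176), and neither was called. For Ifit2, the WT -dox arrays were under 50. ESC markers summed to 45866 to 48232 in F266A -dox and 56744 to 57801 in WT -dox, a difference whose part in these calls was not tested.

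Of the 25 calls, 14 held with each array left out, among them those of Psmb8, Psmb10, Tap1, both B2m probe sets, Tapbp by 1421812_at and H2-K1 and H2-D1 by 2 probe sets each. The calls of Irf1 (0.38 to 0.53, limma adjusted p 0.0613 to 0.0891) and Bst2 (0.37 to 0.42, 0.106 to 0.136) ended without F266A -dox replicate 2 or either WT -dox array. Tap2 ended without F266A -dox replicate 2 or WT -dox replicate 1 (0.42 to 0.43, 0.151 to 0.156), Ifit2 without replicate 1 of either group (0.48 to 0.53, 0.0528 to 0.0683), and Ifi35 by 1445897_s_at without WT -dox replicate 1 (0.52, 0.0651). Trim25 by 1419879_s_at ended without any of the 4 arrays (-0.46 to -0.35, 0.0528 to 0.108) and Xaf1 by 1443698_at without F266A -dox replicate 1 or WT -dox replicate 2 (-0.58 to -0.46, 0.0721 to 0.0854). Among further probe sets, Ifi35 by 1459151_x_at (0.42 to 0.45, 0.0503 to 0.0568) and H2-K1 by 1427746_x_at (0.66 to 0.73, 0.0794 to 0.0878) ended without replicate 2 of either group. H2-D1 by 1451683_x_at ended without replicate 1 of either (0.38 to 0.39, 0.0843 to 0.123) and Tapbp by 1450378_at without WT -dox replicate 1 (0.47, 0.0569). Without WT -dox replicate 1, 14 probe sets were called higher, and without WT -dox replicate 2, 2 were called lower.

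**Figure D3:**
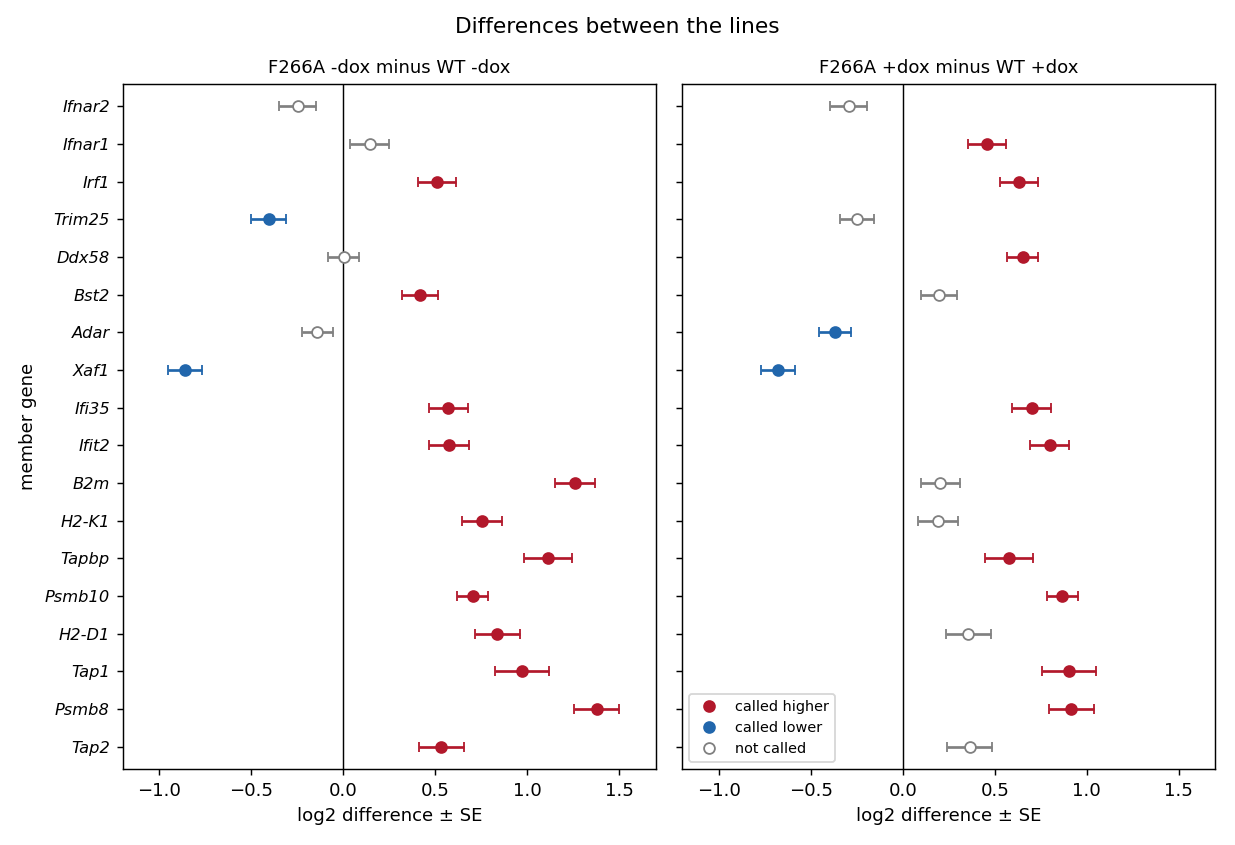
Difference between the lines (log2, x axis, with bars of 1 SE) without doxycycline (left) and with it (right) for the 18 members that exceeded 50 and were called in at least 1 comparison (y axis, by role), filled where called. Each member is shown by 1 probe set, the one with the highest mean among those above 50 and called in any comparison. B2m and H2-K1 are called only on the left and Ddx58 and Ifnar1 only on the right. H2-D1 (1425545_x_at) and Trim25 (1419879_s_at) are not called on the right, where other probe sets of these genes were called higher.

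Withdrawal was then examined in each line, to see how cells differ once the transgene is no longer induced. In the F266A line, 5 of the 9 antigen presentation genes had a probe set called higher without doxycycline, and none had one called lower. Of their 26 probe sets 8 were called higher, against 2.62% of all probe sets. Of the 80 probe sets 11 were called higher (13.8%), against 2.62% of all probe sets, and 4 lower (5%), against 3.1% of all, with a median difference of 0.08, against 0.01 over all. The 8 genes with a probe set called higher were Irf1, Oasl2, Usp18, Tapbp, Psmb8, Psmb10, H2-D1 and H2-K1, and the 3 with one called lower were Ifnar2, Trim25 and Xaf1. Psmb8 was higher in F266A -dox than in F266A +dox by 0.85 ± 0.12 (limma adjusted p = 0.00551), Psmb10 by 0.84 ± 0.09 (limma adjusted p = 0.00155), H2-K1 by 0.74 ± 0.11 (limma adjusted p = 0.0058), Tapbp by 0.67 ± 0.13 (limma adjusted p = 0.0193) and Irf1 by 0.59 ± 0.10 (limma adjusted p = 0.013). Oasl2, under 50 in every array, was higher by 0.86 ± 0.09. Xaf1 was 2.49-fold lower (-1.32 ± 0.09, limma adjusted p = 0.00089), and Ifnar2 was lower at -0.45 ± 0.10 (limma adjusted p = 0.0308). Tap1 differed by 0.06 ± 0.15, B2m by 0.32 ± 0.11 and Ddx58 by 0.10 ± 0.08 (-0.53 ± 0.16 by 1456890_at, limma adjusted p = 0.0828), and none of them was called. With genes as means of probe sets above 50, Ifnar2 was at -0.26 and H2-D1 at 0.40, against 0.61 ± 0.12 for H2-D1 by 1425545_x_at.

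Only 4 of these 15 calls, those of Psmb10, Oasl2 and both Xaf1 probe sets, held with each array left out. Psmb8 was lost without F266A +dox replicate 1 (0.84, limma adjusted p = 0.0531), as was H2-D1 by 1451784_x_at (0.52, 0.0581), and H2-K1 by 1425336_x_at without F266A +dox replicate 2 (0.72, 0.0501). Tapbp (0.45 to 0.70, 0.0698 to 0.0992), Irf1 (0.47 to 0.64, 0.0679 to 0.0816) and H2-K1 by 1451931_x_at (0.41 to 0.55, 0.0742 to 0.113) ended without F266A -dox replicate 2 or either F266A +dox array. Ifnar2 (-0.48 to -0.43, 0.0737 to 0.139) and H2-D1 by 1425545_x_at (0.55 to 0.68, 0.0566 to 0.118) ended without any 1 of the 4 arrays. Usp18 ended without any 1 array but those of WT +dox (0.39 to 0.45, 0.0621 to 0.168), H2-K1 by 1427746_x_at without any but F266A +dox replicate 1 (0.39 to 0.76, 0.0606 to 0.229), and Trim25 by 1425974_a_at without any of the 8 (-0.43 to -0.29, 0.0554 to 0.221). Without either F266A +dox array 4 probe sets were called higher and without F266A -dox replicate 2 it was 5, and without F266A -dox replicate 2 or either F266A +dox array 2 were called lower. Here the ESC marker sum was 45866 to 48232 in F266A -dox and 54717 to 54926 in F266A +dox, and its part was not tested.

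In the WT line the pattern was mixed. Of the 80 probe sets 9 were called higher in WT -dox than in WT +dox (11.2%), against 6.36% of all probe sets, and 5 lower (6.25%), against 6.31% of all, with a median difference of 0.03, against 0.00 over all. The 9 genes with a probe set called higher were Ifnar1, Irf1, Ddx58, Trim25, Ifit2, Oasl2, Ifi35, Psmb10 and H2-D1, and the 3 with one called lower were Ifnar2, Xaf1 and B2m. Trim25 was called by 1426415_a_at alone (0.42 ± 0.11), with the others at -0.09 ± 0.09 and -0.13 ± 0.09. H2-D1 was called by 1 of its 9 probe sets, 1451784_x_at (0.36 ± 0.08), while 1425545_x_at, whose groups overlapped, gave 0.13 ± 0.12 (limma adjusted p = 0.581). Ifit2 and Oasl2 were under 50 in all 4 WT arrays. Psmb10 was 2-fold higher (1.00 ± 0.09, limma adjusted p = 0.00013), Ddx58 was higher by 0.75 ± 0.08 (limma adjusted p = 0.000575) and Irf1 by 0.72 ± 0.10 (limma adjusted p = 0.00224). B2m was lower at -0.73 ± 0.11 (limma adjusted p = 0.00234) and -0.77 ± 0.12 (limma adjusted p = 0.00319) by its 2 probe sets, and Xaf1 was 2.2-fold and 2.58-fold lower by its 2. Tap1 at -0.01 ± 0.15, Tapbp at 0.14 ± 0.13, H2-K1 at 0.18 ± 0.11 and Psmb8 at 0.39 ± 0.12 (limma adjusted p = 0.0638) were not called.

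With each array left out, 7 of the 14 calls held, those of Irf1, Ddx58, Psmb10 and both probe sets of Xaf1 and B2m. H2-D1 by 1451784_x_at (0.33 to 0.40, limma adjusted p 0.0685 to 0.125), Oasl2 (0.40 to 0.47, 0.0512 to 0.0871) and Trim25 by 1426415_a_at (0.38 to 0.46, 0.0832 to 0.147) ended without any 1 of the 4 WT arrays. Ifit2 ended without either WT -dox array or WT +dox replicate 2 (0.40 to 0.52, 0.065 to 0.119) and Ifnar2 without WT -dox replicate 1 or WT +dox replicate 2 (-0.46 to -0.37, 0.0741 to 0.0782). Ifi35 (0.28 to 0.44, 0.0519 to 0.24) and Ifnar1 (0.27 to 0.43, 0.069 to 0.265) ended without either WT -dox array, WT +dox replicate 1 or either of 2 arrays of the F266A line, F266A -dox for Ifi35 and F266A +dox for Ifnar1. With genes as means of probe sets above 50, Ifi35 was at 0.19 and not called (limma adjusted p = 0.0615). Without WT -dox replicate 2, 3 probe sets were called higher, without either replicate 1 of this line 4 were, and without WT +dox replicate 2 it was 5. Each group enters 2 of the 4 pairwise comparisons, so these share arrays and are not independent of each other.

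The change on withdrawal was compared between the lines by the interaction, the F266A change minus the WT change. Of the 80 probe sets 2 were called higher (2.5%), against 0.312% of all, and 1 lower (1.25%), against 0.358% of all. Both higher ones read B2m, at 1.14 ± 0.17 (1449289_a_at, limma adjusted p = 0.0229) and 1.05 ± 0.15 (1452428_a_at, limma adjusted p = 0.0206). B2m was higher in F266A -dox than in F266A +dox by either probe set, without a call, and lower in WT -dox than in WT +dox, with one. The lower one was Ddx58 at -0.65 ± 0.12 (limma adjusted p = 0.0489), which differed by 0.10 in the F266A line and 0.75 in the WT line. For the remaining 77 probe sets a difference in response was not called, including Psmb8 (0.46 ± 0.17, limma adjusted p = 0.296), H2-K1 (0.56 ± 0.15, limma adjusted p = 0.152) and Tapbp (0.54 ± 0.19, limma adjusted p = 0.257), whose 95% intervals of 0.08 to 0.84, 0.22 to 0.90 and 0.12 to 0.95 lie above 0. The B2m calls ended without 6 of the 8 arrays, all but F266A -dox replicate 1 and WT -dox replicate 2 (0.93 to 1.16, limma adjusted p 0.0573 to 0.112), and the Ddx58 call without any 1 of the 8 (-0.72 to -0.59, 0.0799 to 0.186).

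**Figure D4:**
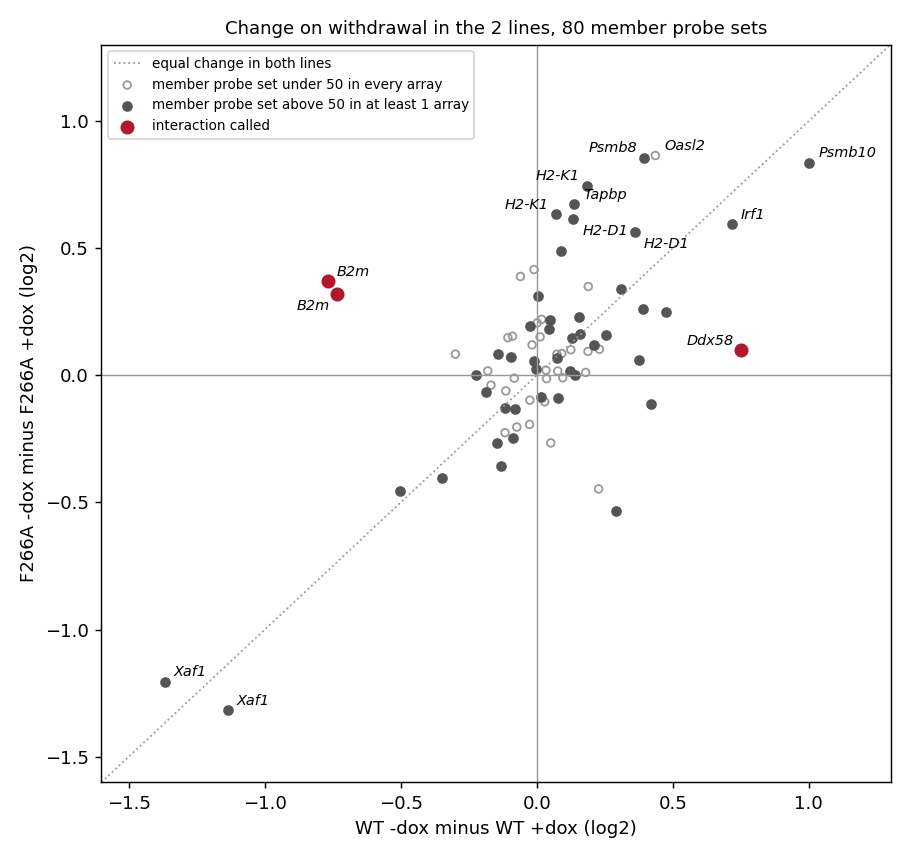
Change on withdrawal (log2) of the 80 member probe sets in the F266A line (y axis) against the WT line (x axis), with the dotted line at equal change, open circles for probe sets under 50 and red points where the interaction was called. Xaf1 lies low and Psmb10 and Irf1 high in both lines, whereas B2m is above 0 in the F266A line and below it in the WT line.

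Further genes of the same pathways were read from 4 lists of 63 genes, of which 55 were measured by 108 probe sets, and a gene is counted where at least 1 of its probe sets was called. In F266A +dox against WT +dox 11 genes were called higher and 4 lower (13 probe sets higher, or 12% against 6.39% of all, and 7 lower, or 6.48% against 4.98%). In F266A -dox against WT -dox there were 11 and 3 (15 probe sets higher, or 13.9% against 5.71% of all, and 6 lower, or 5.56% against 4.34%). In F266A -dox against F266A +dox there were 10 and 1 (14 probe sets higher, or 13% against 2.62% of all, and 1 lower, or 0.926% against 3.1%). In WT -dox against WT +dox there were 10 and 4 (13 probe sets higher, or 12% against 6.36% of all, and 4 lower, or 3.7% against 6.31%). The shares called lower between the lines lay near those of all probe sets. Irgm1, an interferon-inducible GTPase, spanned the widest range, with 8.04 and 8.30 in F266A -dox, 6.80 and 6.78 in F266A +dox, 5.72 and 6.18 in WT -dox and 5.21 and 5.03 in WT +dox (1418825_at). It was higher in F266A -dox than in WT -dox, by 2.22 ± 0.15 (limma adjusted p = 4.75e-05), and higher in F266A +dox than in WT +dox, by 1.67 ± 0.15 (limma adjusted p = 0.000118), where both WT +dox values were under 50. Erap1, the aminopeptidase that trims peptides for class I, read 7.06 and 6.89 in F266A -dox, 6.16 and 5.91 in F266A +dox, 5.36 and 5.57 in WT -dox and 4.86 and 4.55 in WT +dox (1416942_at), so that all 4 WT arrays were under 50. The 2 genes had the same order of groups as Psmb8, with no overlap, and both were called in all 4 pairwise comparisons, with each array left out as well.

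Dtx3l and Parp9, which form a ubiquitin ligase and ADP-ribosyltransferase complex, had the same order of groups. Dtx3l read 7.53 and 7.65 in F266A -dox, 6.74 and 6.73 in F266A +dox, 6.95 and 7.04 in WT -dox and 5.44 and 5.68 in WT +dox (1439825_at). Parp9 read 8.36 and 8.49 in F266A -dox, 7.58 and 7.55 in F266A +dox, 7.68 and 7.74 in WT -dox and 6.84 and 6.82 in WT +dox (1416897_at). In both, WT +dox was the lowest group, F266A -dox the highest and WT -dox above F266A +dox, an order that Psmb10 shared. Irf8, an interferon regulatory factor, stood apart in WT +dox only by 1416714_at, with 5.03 and 5.02 in F266A -dox, 5.01 and 5.13 in F266A +dox, 5.23 and 4.99 in WT -dox and 6.35 and 6.06 in WT +dox. By this probe set it exceeded 50 in WT +dox alone. F266A +dox was lower than WT +dox at -1.13 ± 0.12 (limma adjusted p = 0.000325). WT -dox was lower than WT +dox at -1.10 ± 0.12 (limma adjusted p = 0.000476). With each array left out these differences were -1.28 to -0.99 and -1.25 to -0.95. The interaction by 1416714_at was called at 1.05 ± 0.17 (limma adjusted p = 0.0301), and that call ended without any 1 array but WT +dox replicate 2 (at least 0.91). A stronger Irf8 probe set, 1448452_at, read 5.42 and 5.82 in F266A -dox, 5.53 and 5.30 in F266A +dox, 5.54 and 5.72 in WT -dox and 6.01 and 6.15 in WT +dox. By 1448452_at F266A +dox was also called lower than WT +dox, at -0.66 ± 0.14 (limma adjusted p = 0.0146). The WT change by 1448452_at of -0.45 ± 0.14 (limma adjusted p = 0.0697) and the interaction of 0.65 ± 0.20 (limma adjusted p = 0.2) were not called.

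Trim21, an antibody receptor in the cytosol, read 7.05 and 7.45 in F266A -dox, 6.65 and 6.70 in F266A +dox, 6.55 and 6.51 in WT -dox and 6.14 and 6.15 in WT +dox (1448940_at). Its F266A -dox values lay above those of every other group, and it was higher in F266A -dox than in WT -dox by 0.72 ± 0.12 (limma adjusted p = 0.00472). Ptpn6, a phosphatase that restrains cytokine signalling, read 7.73 and 7.79 in F266A -dox, 7.72 and 7.64 in F266A +dox, 8.28 and 8.03 in WT -dox and 7.28 and 7.26 in WT +dox (1460188_at). It was highest in WT -dox and lowest in WT +dox, with both F266A groups between them. Its WT -dox values were higher than those of WT +dox by 0.89 ± 0.10 (limma adjusted p = 0.000543), and its interaction was called at -0.81 ± 0.14 (limma adjusted p = 0.0393), a call that ended without any 1 of the 8 arrays (-0.93 to -0.68, 0.0537 to 0.174). A stronger Ptpn6 probe set, 1456694_x_at, was also called higher in WT -dox than in WT +dox, by 0.50 ± 0.08 (limma adjusted p = 0.00347). The interaction by 1456694_x_at, at -0.40 ± 0.11, was not called (limma adjusted p = 0.171). Jak1, the kinase on both interferon receptors, read 5.84 and 5.70 in F266A -dox, 7.08 and 6.59 in F266A +dox, 6.52 and 6.48 in WT -dox and 6.34 and 7.10 in WT +dox (1433804_at). By this probe set F266A -dox was lower than F266A +dox at -1.07 ± 0.22 (limma adjusted p = 0.0243), a call that ended without either F266A -dox array or F266A +dox replicate 1 (-1.31 to -0.82, 0.0656 to 0.17). The 2 Jak1 probe sets with stronger signal were not called, at -0.22 ± 0.10 (1433805_at, limma adjusted p = 0.231) and -0.14 ± 0.10 (1433803_at, limma adjusted p = 0.476), so the change of Jak1 rests on its weakest probe set.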

How the data were processed

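Samples were 8 Affymetrix mouse expression arrays, 2 for each of 4 groups. The values were log2 expression that the authors made with RMA (justRMA in R 2.11.1), which corrects background, normalizes by quantiles and summarises the probes of a set, and the table was deposited in that form. RMA evens out shifts shared by whole arrays, and array values carry no read depth. Having only 2 arrays a group limits the precision.

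Of 45101 probe sets, 64 controls, 932 with several symbols and 9160 with none were left out, and 34945 were fitted with limma 3.58.1 in R 4.3.3, with all 8 arrays as 4 group means and no low-value filter. The 4 pairwise contrasts and the interaction had two-sided p-values, adjusted over the 34945 by Benjamini and Hochberg's method, and calls were made at an adjusted p under 0.05. The spread had 4 residual and 5.64 prior degrees of freedom, and the median SE was 0.101 for a pair and 0.143 for the interaction. The script was tested on simulated data.

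Per-array values are given for members with a probe set above 50 that was called in at least 1 contrast. The probe set shown is the one with the highest mean among those above 50 and called, so for Adar it is not the strongest. Values are also given for up to 8 members not called and 8 further pathway genes with the widest called differences. Arrays of some comparisons are given for Oasl2 and Usp18, called but under 50. Members and lists were chosen with earlier results of these data known. A crossed block was added after seeing the data. The SAM test named in the study's methods was not run. Promoter windows are from RefSeq.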

Additional observations from a re-analysis of the deposited data

Results flagged for a closer look

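Of the member probe sets, 3 were singled out because the change on withdrawal differed between the F266A and the WT line by the interaction test. B2m gave 1.14 ± 0.17 by 1449289_a_at (limma adjusted p = 0.0229) and 1.05 ± 0.15 by 1452428_a_at (limma adjusted p = 0.0206), with a change of 0.37 and 0.32 in the F266A line and of -0.77 and -0.73 in the WT line. The change of B2m in the F266A line was not called (limma adjusted p = 0.108 and 0.122), and that in the WT line was called lower (limma adjusted p = 0.00319 and 0.00234). Ddx58 gave -0.65 ± 0.12 (limma adjusted p = 0.0489), with a change of 0.10 in the F266A line and 0.75 in the WT line. The B2m calls ended without 6 of the 8 arrays, at adjusted p 0.0573 to 0.112, and the Ddx58 call without any 1 of the 8, at 0.0799 to 0.186. Groups of 2 arrays are too small for a test of outlying arrays.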

How the results depend on the processing

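No member value that was called changed direction under any alternative. Counts of called member probe sets are given as higher and lower. With each array left out, F266A +dox against WT +dox had 8 to 16 higher and 2 to 3 lower, F266A -dox against WT -dox 14 to 22 and 2 to 5, F266A -dox against F266A +dox 4 to 10 and 2 to 4, WT -dox against WT +dox 3 to 8 and 4 to 5, and the interaction 0 to 2 and 0 to 1. A fold of at least 2 as well left 0 and 0 in F266A +dox against WT +dox, 4 and 0 in F266A -dox against WT -dox, 0 and 2 in F266A -dox against F266A +dox, 1 and 2 in WT -dox against WT +dox and 0 lower in the interaction. Genes as means of probe sets above 50, the unit of the study, gave 12 higher in F266A -dox against WT -dox, 7 higher in F266A -dox against F266A +dox, 3 lower in WT -dox against WT +dox and 1 higher in the interaction. Testing only probe sets above 50 gave 5 lower in F266A +dox against WT +dox and 7 lower in F266A -dox against WT -dox. A trended, robust variance prior gave 8 lower in F266A +dox against WT +dox and 2 lower in the interaction. Fitting only the groups of a contrast gave 7 higher in F266A -dox against F266A +dox. Quantile normalization repeated on the table left 0 lower in the interaction, with Ddx58 at an adjusted p of 0.0502.

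Deviations of same-numbered arrays correlated at 0.161 in the F266A line, 0.0933 in the WT line and -0.168 to -0.091 between the lines, so the numbers as given were not taken to pair the samples. With the WT numbers exchanged all 6 correlations would be positive, so structure shared across the groups cannot be told apart from the numbering. With the replicate number as a block, the counts were 14 and 3, 21 and 4, 10 and 3, 7 and 5, and 2 and 0 in the order above, and 67 of 73 called values kept their call. With the WT numbers exchanged, a block chosen after seeing the data, 71 of 73 did, with 5 lower in F266A +dox against WT +dox and 0 lower in the interaction. The cause of these shifts was not tested. Signals under 50 are near background, so a small difference there has less weight.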
